A study of Mus musculus with 6 samples.

Results

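Hypoxia-inducible factor (HIF) switches on genes that adapt cells to low oxygen. In mouse pigment cells grown with or without the growth factor NRG1, 10 genes of the HIF pathway outside glycolysis are described here. They are the HIF alpha subunit genes Hif1a and Epas1, the oxygen sensor genes Egln1 and Egln3, the secreted ligand genes Vegfa and Adm, and the stress genes Bnip3, Ndrg1, Ero1a and Ddit4. They were chosen by symbol from the 19938 genes that the arrays measured with a probe set of a single gene, and for each gene the probe set with the highest mean over the 6 arrays was read. All 10 were measured. The cells were Melan-Ink4a, melanocytes of C57BL/6J origin, cultured from skin, and both groups lacked the Ink4a-ARF1 tumour suppressor locus. The treated group (3 arrays) received 10 nM NRG1-b1, the beta form of neuregulin 1 that binds ERBB3, for 21 days, and the other group (3 arrays) was untreated. The medium of both groups held cholera toxin at 200 pM and TPA, a phorbol ester, at 200 nM, and cells were harvested for RNA when 90% confluent. The labels state no oxygen level and no hypoxic group, so the comparison is of NRG1 and not of hypoxia. Only 1 cell line was used, and no label states that replicates are separate cultures. The p-values therefore reflect the spread among these 6 arrays, and that spread may be technical.

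The HIF pathway is controlled mainly after transcription. In oxygenated cells the prolyl hydroxylases of the EGLN family mark HIF alpha proteins, and the VHL ubiquitin ligase then has them degraded. When oxygen falls, or when growth signalling raises their synthesis, the alpha subunits pair with ARNT and bind the core letters ACGTG or GCGTG near target genes. In melanocytes Hif1a has also been described as a target of the lineage factor MITF. An array measures transcripts only, so the values below say nothing of HIF protein or of its activity.

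For 8 of the 10 genes RefSeq start-site windows were at hand (build GRCm38.p6, 250 bases before to 50 bases after an annotated start, 300 in all). There were 9 windows, because Vegfa had 2 annotated starts, and Epas1 and Ndrg1 were without one. All 8 genes held ACGTG or GCGTG in a window, Vegfa only at the downstream of its 2 starts. How many of all windows hold either core was not counted, so this count has no background beside it. The background shares of each core are given below. Egln1, which did not pass the test, had ACGTG at position -68 from its start and GCGTG at -126. Its window is not printed, nor are those of Vegfa, which rose, so the printed windows do not tell whether the letters go with a rise. The windows of 6 genes are shown, those of 5 genes that rose and of Egln3, which did not pass the test. Each is written 5′ to 3′ on the strand of the gene, and capitals mark ACGTG or GCGTG on either strand.
Hif1a, chr12:73907617-73907916, plus strand: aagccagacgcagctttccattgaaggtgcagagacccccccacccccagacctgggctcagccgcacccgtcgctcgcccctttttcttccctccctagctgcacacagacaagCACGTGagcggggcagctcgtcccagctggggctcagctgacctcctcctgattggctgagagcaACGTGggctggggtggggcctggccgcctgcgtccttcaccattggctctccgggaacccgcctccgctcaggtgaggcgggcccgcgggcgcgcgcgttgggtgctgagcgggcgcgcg
Egln3, chr12:54203825-54204124, minus strand: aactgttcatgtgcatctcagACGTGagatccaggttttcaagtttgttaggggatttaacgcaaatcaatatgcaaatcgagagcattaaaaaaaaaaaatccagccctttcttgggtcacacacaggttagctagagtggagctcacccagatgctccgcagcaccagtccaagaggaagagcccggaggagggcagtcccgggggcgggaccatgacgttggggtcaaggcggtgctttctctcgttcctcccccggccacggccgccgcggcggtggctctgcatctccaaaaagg
Adm, chr7:110627407-110627706, plus strand: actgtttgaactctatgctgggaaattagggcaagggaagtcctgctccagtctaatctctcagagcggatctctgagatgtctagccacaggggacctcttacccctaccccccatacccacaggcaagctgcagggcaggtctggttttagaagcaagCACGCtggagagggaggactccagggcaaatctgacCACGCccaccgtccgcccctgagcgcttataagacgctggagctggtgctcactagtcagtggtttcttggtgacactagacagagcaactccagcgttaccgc
Bnip3, chr7:138909457-138909756, minus strand: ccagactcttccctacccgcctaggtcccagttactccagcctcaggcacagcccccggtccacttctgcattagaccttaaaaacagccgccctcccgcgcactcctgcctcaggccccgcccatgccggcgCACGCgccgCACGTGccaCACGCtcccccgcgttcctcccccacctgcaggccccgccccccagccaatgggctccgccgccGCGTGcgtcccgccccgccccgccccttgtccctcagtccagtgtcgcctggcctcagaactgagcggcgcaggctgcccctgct
Ero1a, chr14:45318523-45318822, minus strand: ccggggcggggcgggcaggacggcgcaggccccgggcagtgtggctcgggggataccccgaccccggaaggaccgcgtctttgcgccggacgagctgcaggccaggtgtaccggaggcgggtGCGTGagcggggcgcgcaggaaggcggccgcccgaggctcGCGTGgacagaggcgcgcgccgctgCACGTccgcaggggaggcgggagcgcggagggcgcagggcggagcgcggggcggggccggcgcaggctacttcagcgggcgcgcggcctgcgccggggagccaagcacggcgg
Ddit4, chr10:59951721-59952020, minus strand: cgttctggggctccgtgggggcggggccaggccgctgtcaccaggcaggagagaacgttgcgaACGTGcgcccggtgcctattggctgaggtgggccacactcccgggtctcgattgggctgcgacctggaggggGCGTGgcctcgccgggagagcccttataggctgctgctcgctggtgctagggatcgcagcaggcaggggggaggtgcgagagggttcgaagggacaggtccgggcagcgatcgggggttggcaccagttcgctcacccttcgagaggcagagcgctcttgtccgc
ACGTG, searched on both strands, was present in 7 of the 9 windows, against 19.6% of 32851 windows of the same length across the genome. GCGTG was present in 6 of the 9, against 32.4%. The windows of these genes had a median of 69% G and C, against 52.7% over all windows, so base composition differed as well. The window of Bnip3 held the most matches, with ACGTG on both strands and 3 copies of GCGTG. In Bnip3, and in Hif1a for all but the ACGTG at position -70, the ACGTG lies inside the palindrome CACGTG, an E-box that MITF and MYC can also bind, and 7.15% of all windows hold that palindrome. Adm had GCGTG alone, in 2 copies at positions -90 and -54 from its start, and Egln3 a single ACGTG at position -229. The upstream window of Vegfa (from chr17:46032328, minus strand) held neither core. Its other window (from chr17:46025114) lies downstream of that start, held 1 of each and is counted in the 7 and the 6. Whether the letters of that downstream window belong to a promoter was not tested. TGATGNAA, the core of sites bound by the stress factor ATF4, was in 0 of the 9 windows and in 3.97% of all windows, which says only that these letters are not in these stretches. A match is a description of sequence and not a bound site.

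With NRG1, 6 of the 10 genes rose, 2 fell and 2 were not called. Bnip3 rose most, 3.23-fold on its brighter probe set (1.62-fold on the other), followed by Adm (2.16-fold), Ero1a (1.63-fold), Vegfa and Hif1a (1.46-fold each) and Ddit4 (1.35-fold). Ndrg1 fell 2.64-fold and Epas1 1.27-fold. Egln1 and Egln3 did not pass the test. The words rose, fell and called are kept for genes with a limma p-value under 0.05 after Benjamini-Hochberg adjustment over all 19938, and changes are differences of the deposited log2 signals, NRG1 minus untreated. By this rule 20.9% of all genes were called, 12.3% as risen and 8.56% as fallen. The groups did not overlap for the 8 called members, as they did not for 36.7% of all genes. The median change of the 10 genes was 0.49 on the log2 scale, against -0.029 over all genes. Since the genes were chosen by name with earlier results of these data known, these counts describe them and are not a test of the pathway. In RNA from whole cultures, fewer cells of a type and less RNA per cell cannot be told apart.

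**Figure D1:**
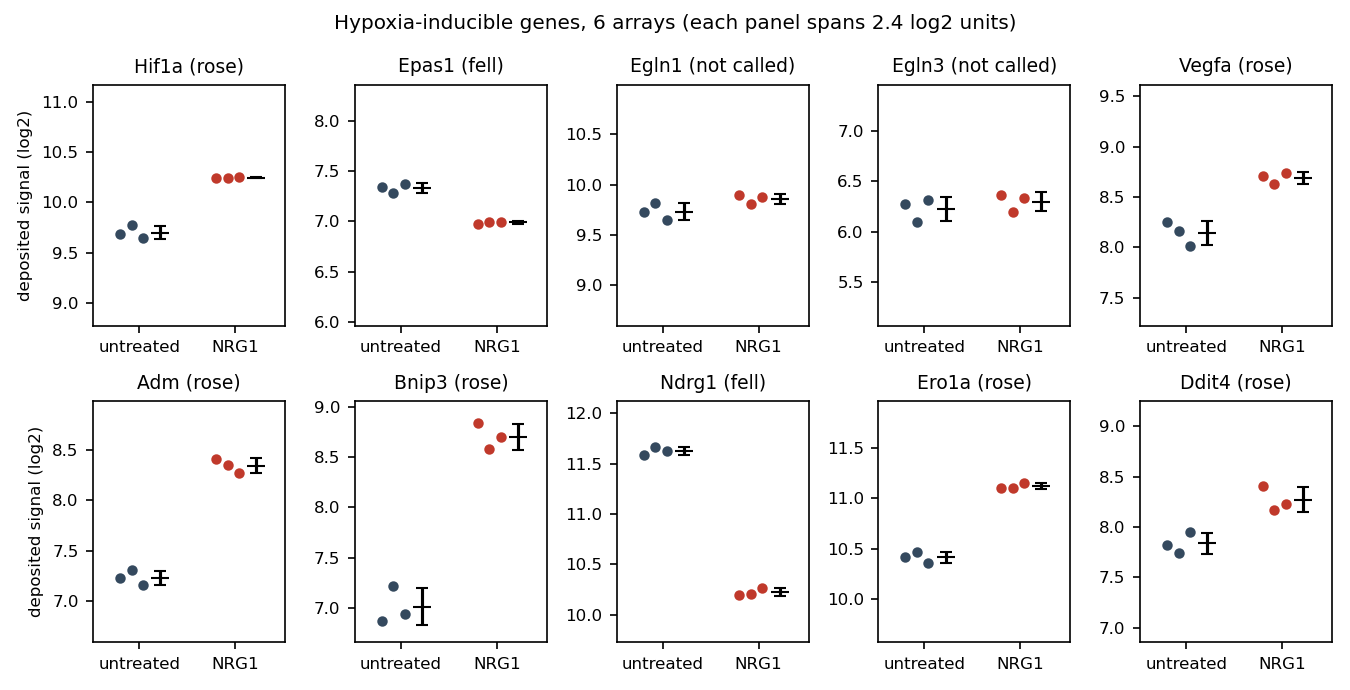
Deposited log2 signal of the 10 genes in each of the 6 arrays. Dots are single arrays and the bars beside them the mean ± SD (n = 3 per group). Every panel has the same width in log2 units but is centred on its own gene, so levels cannot be compared by height across panels. The groups overlap for Egln1 and Egln3 and are apart for the 8 others, with Ndrg1 and Epas1 lower in the NRG1 arrays.

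The HIF alpha subunits moved in opposite directions. Hif1a, the subunit present in most cells, stood at 10.24, 10.24 and 10.25 on the log2 scale in the 3 NRG1 arrays and at 9.68, 9.77 and 9.64 in the untreated arrays. Every NRG1 array was higher than every untreated array. The rise was 0.54 ± 0.06 (SE; limma, adjusted p = 0.000102). Epas1, which encodes HIF-2 alpha, a subunit best known from endothelium and kidney, stood at 6.98, 7.00 and 7.00 with NRG1 and at 7.35, 7.28 and 7.37 without. All 3 NRG1 arrays were lower, and the fall was 0.34 ± 0.058 (SE; limma, adjusted p = 0.00181). When limma's treat test asked for more than a 1.2-fold change, which 6.14% of all genes passed, Epas1 was no longer called (adjusted p = 0.961). The mean signal of Epas1, 7.16, lay within the range of the array medians of the tested genes (7.11 to 7.19), and array signals are compressed toward the dim end.

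The within-array difference of Epas1 and Hif1a moved from -2.37 ± 0.115 to -3.25 ± 0.01 (SD, n = 3 each), a shift of -0.89. The groups were apart, and the exact 2-sided permutation test gave p = 0.1, the smallest that 3 against 3 allows, and 0.117 after adjustment over 7 such comparisons. The third alpha subunit gene, Hif3a, had signals of 5.83 ± 0.07 in NRG1 arrays and 5.90 ± 0.061 in untreated arrays (SD, n = 3 each) and was not called. Arnt, the shared partner of the alpha subunits, differed by -0.16 ± 0.061 (SE; limma, adjusted p = 0.0911), and 5 of 17 other settings called it. Its relative Arnt2 fell by 0.22 (limma, adjusted p = 0.0291), a call kept in 8 of 17 settings. Cited2, which competes with HIF alpha for the coactivators CBP and p300 and is itself a HIF target, fell by 0.58 ± 0.058 (SE; limma, adjusted p = 4.71e-05), from 10.70 ± 0.025 to 10.12 ± 0.039 (SD, n = 3 each). Among the 8 genes of subunits and cofactors besides Hif1a and Epas1, 0 rose, 2 fell and 6 were not called. Mitf, the gene of the lineage factor named above, stood at 11.12, 11.14 and 11.16 with NRG1 and at 11.67, 11.70 and 11.63 without, a fall of 0.53. The part of MITF in the change of Hif1a was not tested.

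The oxygen sensors did not pass the test. Egln1, which encodes the main HIF prolyl hydroxylase (PHD2), was at 9.90, 9.80 and 9.88 with NRG1 and at 9.73, 9.82 and 9.64 without. One untreated array lay inside the NRG1 range, and the difference of 0.13 had a 95% interval from -0.016 to 0.28 (limma, adjusted p = 0.208). Egln3 (PHD3), in many cells among the genes that HIF induces most, was at 6.37, 6.19 and 6.33 with NRG1 and at 6.28, 6.09 and 6.32 without. The groups overlapped, and the difference of 0.069 had a 95% interval from -0.11 to 0.24 (limma, adjusted p = 0.606). Its mean signal of 6.26 was below every array's median over the tested genes, where a difference can be understated. None of the other settings called Egln1 (17 settings) or Egln3 (16 settings). The within-array difference of Egln3 and Egln1 shifted by -0.062 (exact permutation test, p = 0.7).

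Among the genes of HIF turnover, the third sensor gene Egln2 (-0.086), the VHL gene (Vhl, -0.08) and the asparaginyl hydroxylase gene Hif1an (-0.00077) were not called. Of the 12 genes of that list besides Egln1 and Egln3, 4 rose and 0 fell. They were Wsb1, which encodes a ligase adaptor (0.58 ± 0.064, SE; limma, adjusted p = 9.62e-05), Eloc (0.35) and Cul2 (0.32), which encode the elongin C and cullin parts of the VHL ligase, and the ubiquitin-conjugating enzyme gene Ube2d1 (0.24, called in 14 of 17 other settings). The call of Cul2 ended without untreated replicate 1 (0.29; limma, adjusted p = 0.0552).

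**Figure D2:**
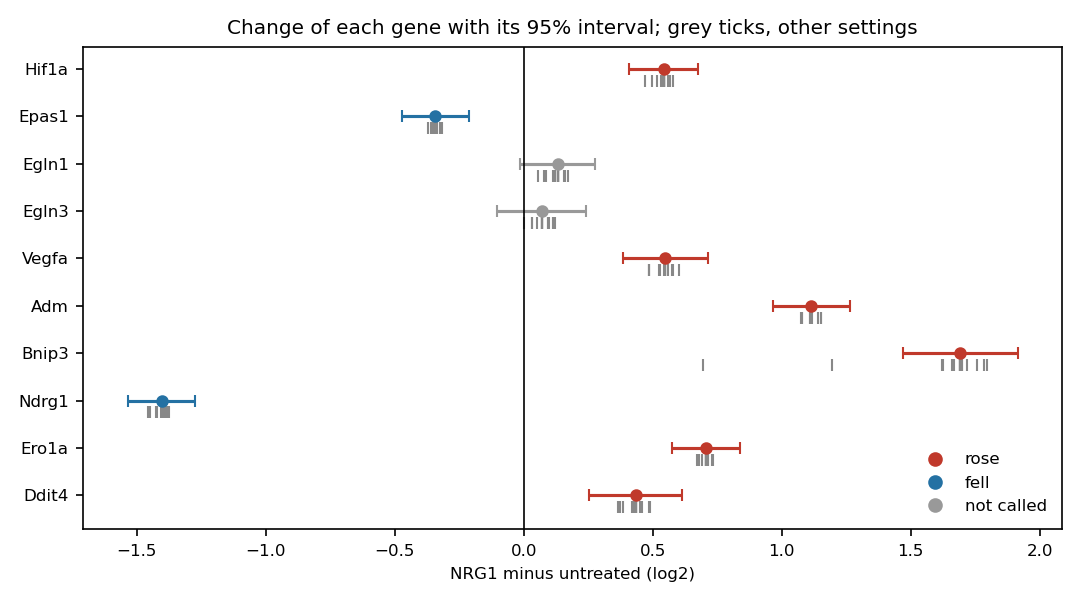
Change of each of the 10 genes, NRG1 minus untreated on the log2 scale, with the 95% interval of the limma fit; red marks genes that rose, blue genes that fell and grey genes not called. Grey ticks under each point are the values under the other settings; those of Bnip3 reach down to 0.70 on its other probe set, and no tick lies across 0 from its point.

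Both secreted ligand genes rose. Vegfa, which encodes the angiogenic growth factor VEGF-A, was at 8.71, 8.63 and 8.74 with NRG1 and at 8.25, 8.17 and 8.02 without. The lowest NRG1 array was above the highest untreated array, and the rise was 0.55 ± 0.074 (SE; limma, adjusted p = 0.000383). Adm, the gene of the vasodilator peptide adrenomedullin, was at 8.41, 8.35 and 8.27 with NRG1 and at 7.23, 7.30 and 7.16 without, a rise of 1.11 ± 0.067 (SE; limma, adjusted p = 1.3e-06). Its gap between the groups was several times the spread within either.

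The relatives of Vegfa divided. Pgf, the placental growth factor gene, rose by 0.48 ± 0.089 (SE; limma, adjusted p = 0.00317). Vegfb fell from 10.64 ± 0.069 to 10.18 ± 0.091 (SD, n = 3 each), by 0.46, and the lymphatic growth factor gene Vegfc fell from 8.17 ± 0.088 to 7.09 ± 0.179, by 1.07 (limma, adjusted p = 1.61e-05). The within-array difference of Vegfa and Vegfb rose by 1.01, with the groups apart (exact permutation test, p = 0.1). Among the receptors, the VEGF coreceptor gene Nrp2 fell by 0.39 (limma, adjusted p = 0.000628), and Nrp1 (0.057), Flt1 (-0.19) and Kdr (-0.21) were not called. Array weights called Flt1 and Kdr, and Flt1 passed also without untreated replicate 2. For adrenomedullin, the receptor gene Calcrl (0.035) and its partners Ramp1 (-0.023) and Ramp3 (-0.029) were not called, and their signs were not stable across settings. Ramp2, a partner with which Calcrl can form an adrenomedullin receptor, fell by 0.18 (limma, adjusted p = 0.048) in a call kept in 7 of 17 settings. The mean signals of Calcrl and Kdr were 4.37 and 5.85, under the array medians. Of the 15 measured ligands and receptors besides Vegfa and Adm, 1 rose and 4 fell.

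Bnip3 showed the largest rise of the 10 on its brighter probe set, and both the size and that rank depended on the probe set. BNIP3 sits on the outer membrane of mitochondria and marks them for removal by autophagy. On the brighter probe set (10414269) the gene was at 8.84, 8.58 and 8.69 with NRG1 and at 6.87, 7.22 and 6.94 without, a rise of 1.69 ± 0.099 (SE; limma, adjusted p = 1.13e-06). On the other (10568785) it was at 7.66, 7.49 and 7.95 with NRG1 and at 6.87, 7.07 and 7.07 without, a rise of 0.70 ± 0.124 (SE; limma over all probe sets, adjusted p = 0.0119). In that same fit over all probe sets the brighter one had an SE of 0.112 (limma, adjusted p = 0.000208). The groups were apart on both, and the 2 changes differed by 1.00 (exact permutation test over arrays, p = 0.1). On the dimmer probe set the rise was smaller than those of Adm (1.11) and Ero1a (0.71). The platform table gives both probe sets the same transcript accessions, and the sources used here do not give the stretch each one covers. Bnip3 is on chromosome 7. By number, 10568785 lies between the probe sets of Adm (chromosome 7) and Egln1 (chromosome 8). The brighter 10414269 lies between those of Egln3 (chromosome 12) and Ero1a (chromosome 14). Which of the 2 reads the Bnip3 locus was not tested.

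Of the 9 other genes of the BNIP3 family and mitophagy, 2 rose, 2 fell and 5 were not called. The closest relative of Bnip3, Bnip3l, the mitophagy receptor also called NIX and likewise known as a HIF target, was at 10.76, 10.75 and 10.73 with NRG1 and at 10.73, 10.80 and 10.69 without. These groups overlapped, and the difference was 0.0028 ± 0.059 (SE; limma, adjusted p = 0.982). The within-array difference of Bnip3 and Bnip3l rose by 1.69 (exact permutation test, p = 0.1), and with the dimmer Bnip3 probe set the rise of Bnip3 itself was the 0.70 given above. Pink1, the kinase that flags damaged mitochondria for parkin, fell by 0.44 ± 0.07 (SE; limma, adjusted p = 0.00117), and Fundc1, a mitophagy receptor tied to hypoxia, fell by 0.33 (limma, adjusted p = 0.00974). Bcl2l13 rose by 0.28 and Bnip2 by 0.20. The call of Bcl2l13 ended without untreated replicate 1 (limma, adjusted p = 0.0507), and that of Bnip2 was kept in 7 of 17 settings. Without untreated replicate 1 the calls in the list, Bnip3 included, went from 5 to 3.

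Ndrg1 moved against the other stress genes. It encodes a cytosolic protein that hypoxia and differentiation induce in many cells and that was named for its repression by N-MYC. Its signal was 10.19, 10.21 and 10.26 with NRG1 and 11.59, 11.67 and 11.62 without. The groups were far apart, and the fall was 1.40 ± 0.059 (SE; limma, adjusted p = 1.26e-07), with a range from -1.45 to -1.37 over 17 other settings. Its relatives Ndrg2 (0.053), Ndrg3 (-0.093) and Ndrg4 (0.063) were not called, so Ndrg1 was the member of its family that passed. The within-array difference of Bnip3 and Ndrg1 rose by 3.10, from -4.61 ± 0.147 to -1.52 ± 0.143 (SD, n = 3 each; exact permutation test, p = 0.1). Of 10 MYC and MXD factors, 0 rose and 4 fell, among them Mxd1 by 0.54, Mxd4 by 0.30 and Myc by 0.28. Mycn, the gene of N-MYC, was not called, with a difference of 0.0022 ± 0.105 (SE; limma, adjusted p = 0.992) whose sign was not stable across settings. The call of Myc ended without NRG1 replicate 3 (limma, adjusted p = 0.0611), and 7 of the 10 fell when the tested genes alone were quantile normalized.

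**Figure D3:**
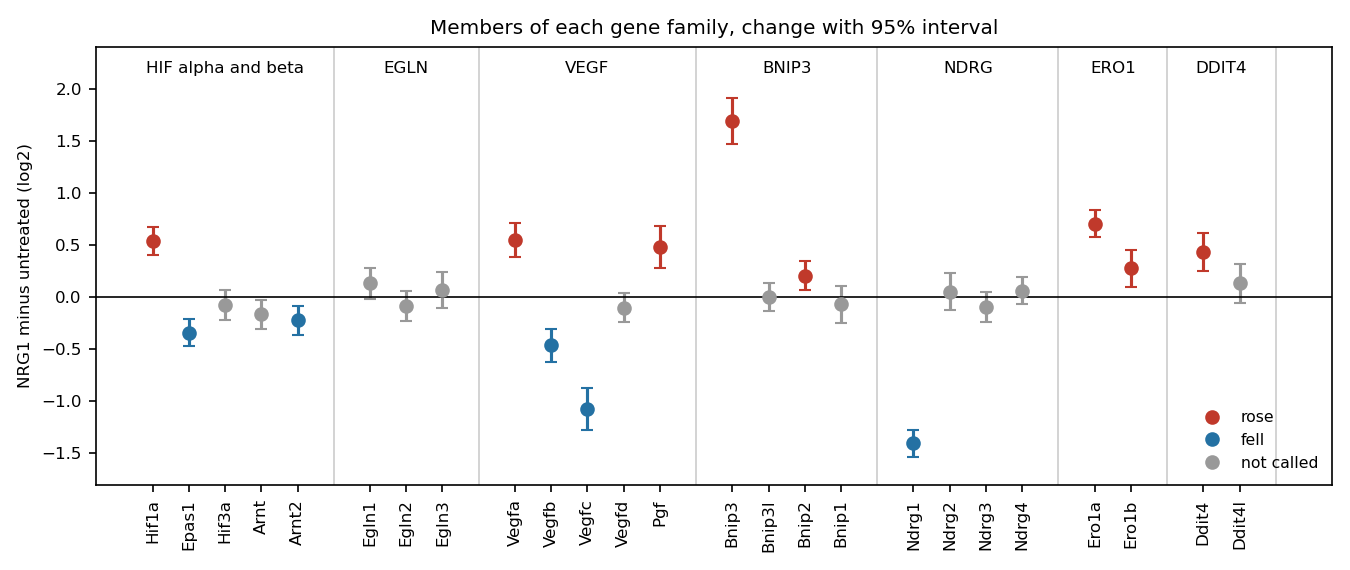
Change of genes in the HIF, EGLN, VEGF, BNIP3, NDRG, ERO1 and DDIT4 families, NRG1 minus untreated on the log2 scale, with the 95% interval of the limma fit. Red genes rose, blue fell and grey were not called. Adm and its relatives are not plotted. Hif1a and Epas1 lie on opposite sides of 0, Bnip3l lies on 0 beside Bnip3 at 1.69, and Ndrg2, Ndrg3 and Ndrg4 lie near 0 beside Ndrg1 at -1.40.

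Ero1a rose together with the enzymes it serves. ERO1 alpha reoxidises protein disulfide isomerases in the endoplasmic reticulum and passes the electrons to oxygen. Its signal was 11.11, 11.10 and 11.15 with NRG1 and 10.42, 10.47 and 10.36 without. Every NRG1 array was higher, and the rise was 0.71 ± 0.06 (SE; limma, adjusted p = 1.53e-05). All 7 other measured genes of the list of ERO1 and disulfide isomerases also rose, with a median of 0.37. That list also holds a peroxiredoxin gene, which is counted in the 7. The isomerase genes Pdia6 (0.70 ± 0.067, SE), Pdia4 (0.63) and Txndc5 (0.52) rose most after Ero1a with the brightest probe set of each gene, and Pdia4 was at 0.37 with its probe sets averaged. P4hb, the classic isomerase gene, rose by 0.35. The relative Ero1b, which is not known for induction by hypoxia, rose by 0.28 (limma, adjusted p = 0.0351), a call kept in 11 of 16 settings. The within-array difference of Ero1a and Ero1b rose by 0.43, from 3.92 ± 0.151 to 4.35 ± 0.063 (SD, n = 3 each; exact permutation test, p = 0.1).

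Ddit4, whose product REDD1 restrains the growth kinase complex mTORC1 through TSC1 and TSC2, was at 8.41, 8.17 and 8.23 with NRG1 and at 7.82, 7.74 and 7.95 without. The lowest NRG1 array was above the highest untreated array, and the rise was 0.43 ± 0.081 (SE; limma, adjusted p = 0.00345). It was not called when more than a 1.2-fold change was asked for (limma treat, adjusted p = 0.371). Of the TSC genes, Tsc1 fell by 0.21 (limma, adjusted p = 0.0314), a call kept in 7 of 17 settings, and Tsc2 (-0.045) was not called. The sestrins hold back mTORC1, and of their genes Sesn3 fell by 0.74 (limma, adjusted p = 1.61e-05) and Sesn1 by 0.40. Sesn2, the sestrin induced by ATF4, rose by 0.26 in a call kept in 9 of 17 settings. The relative Ddit4l (0.13) and the mTORC1 inhibitor gene Akt1s1 (-0.14) were not called. Rheb, the GTPase that switches mTORC1 on, rose by 0.41 ± 0.073 (SE; limma, adjusted p = 0.00249), a call kept in 16 of 17 settings. Txnip, a glucose-sensing inhibitor of thioredoxin, fell by 0.34. Of the 13 genes of that list besides Ddit4, 2 rose, 4 fell and 7 were not called.

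Across a wider list of 49 genes known as HIF targets outside glycolysis, 47 were measured, of which 20 rose, 4 fell and 23 were not called. Besides the 8 that are among the genes above, 15 of 39 rose and 3 fell, with a median of 0.068, against -0.029 over all genes, and by this rule 12.3% of all genes rose and 8.56% fell. The largest rises were those of Tfrc, the transferrin receptor gene (1.64 ± 0.089, SE; limma, adjusted p = 7.02e-07), of Lox, which crosslinks collagen (1.21 ± 0.081), and of P4ha1, a collagen prolyl hydroxylase subunit gene (0.92 ± 0.059). Lox was dim, 4.81 ± 0.148 in untreated and 6.03 ± 0.065 in NRG1 arrays (SD, n = 3 each). The falls besides Ndrg1 were those of Insig2, which retains sterol regulators in the endoplasmic reticulum (-0.87), of the clock repressor gene Bhlhe41 (-0.78) and of the mitochondrial adenylate kinase gene Ak4 (-0.37). The call of Ak4 ended when its probe sets were averaged (-0.13; limma, adjusted p = 0.204).

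Several further members of that list are named after their values were seen. The carbonic anhydrase genes Car12 and Car9, whose products control pH outside the cell, rose by 0.71 and 0.46, the mitochondrial gene Fam162a by 0.74, the collagen lysyl hydroxylase genes Plod2 and Plod1 by 0.44 and 0.42, and the transferrin gene Trf by 0.51. Car12 and Car9 had low mean signals of 6.52 and 6.62. Other genes that HIF is known to induce were not called, among them Ankrd37 (-0.0077), the histone demethylase gene Kdm3a (0.017), the MYC antagonist gene Mxi1 (-0.12), the lipid droplet gene Hilpda (0.17) and the clock gene Bhlhe40 (0.17). Of these 5, Hilpda was called in 2 of 16 other settings, Bhlhe40 in 4 of 17, Mxi1 in 1 of 17 and the others in 0.

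**Figure D4:**
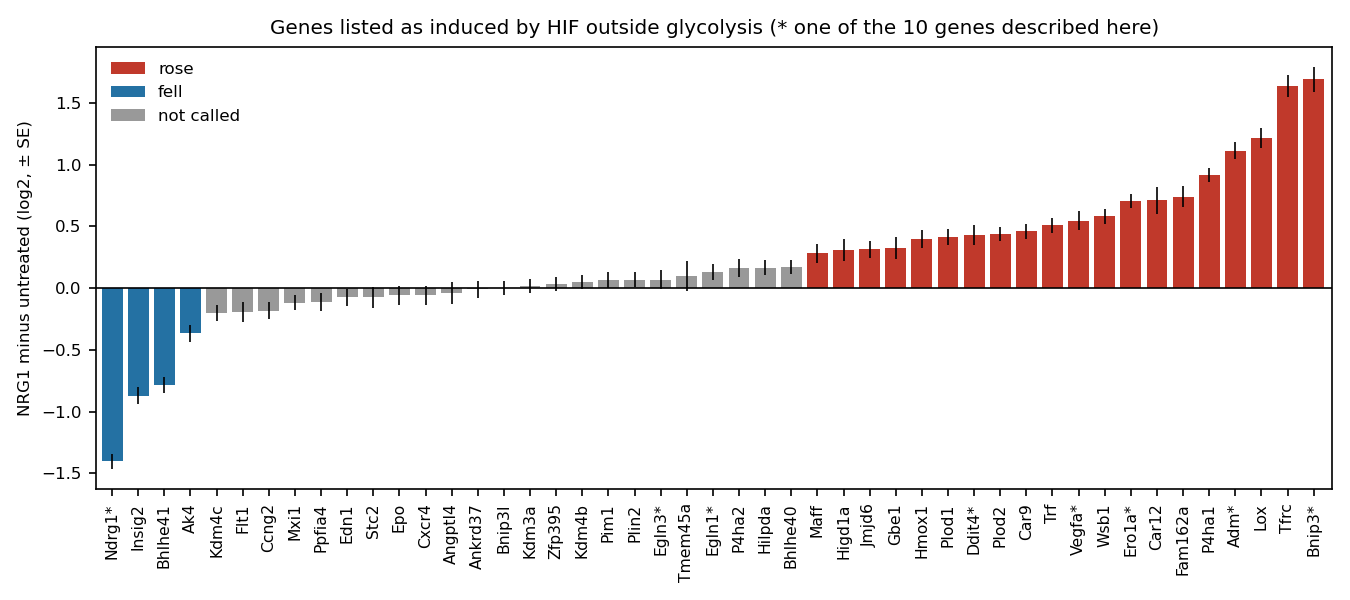
Change of the 47 measured genes listed as induced by HIF outside glycolysis, NRG1 minus untreated on the log2 scale, ordered by size, with bars for the limma standard error; asterisks mark genes among the 10 described here. Red bars rose (20), blue fell (4) and grey were not called (23); Bnip3 and Tfrc stand highest and Ndrg1 lowest.

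Other gene lists that share regulators with these genes moved too. Of 19 measured glycolytic genes known as HIF targets, 11 rose and 2 fell, with a median of 0.36, led by Pdk1 (1.32), Pfkl (1.10) and Pgam1 (0.88). The falls were those of Eno2 (-0.42) and Aldoc (-0.29), the latter lost without NRG1 replicate 2 (limma, adjusted p = 0.053). The list for ATF4, a stress factor that also induces Ddit4, Vegfa and Sesn2, held Atf4 itself, which rose by 0.52 ± 0.062 (SE; limma, adjusted p = 0.000163), and 15 of its targets. Of the 15 targets 9 rose and 2 fell, with a median of 0.30, led by Asns (1.76), Atf3 (0.94) and Phgdh (0.76). The falls were those of Slc7a11 (-0.41, called in 6 of 15 other settings) and Ddit3 (-0.38, called in 12 of 17). The part of either factor in the changes of the 10 genes was not tested.

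**Figure D5:**
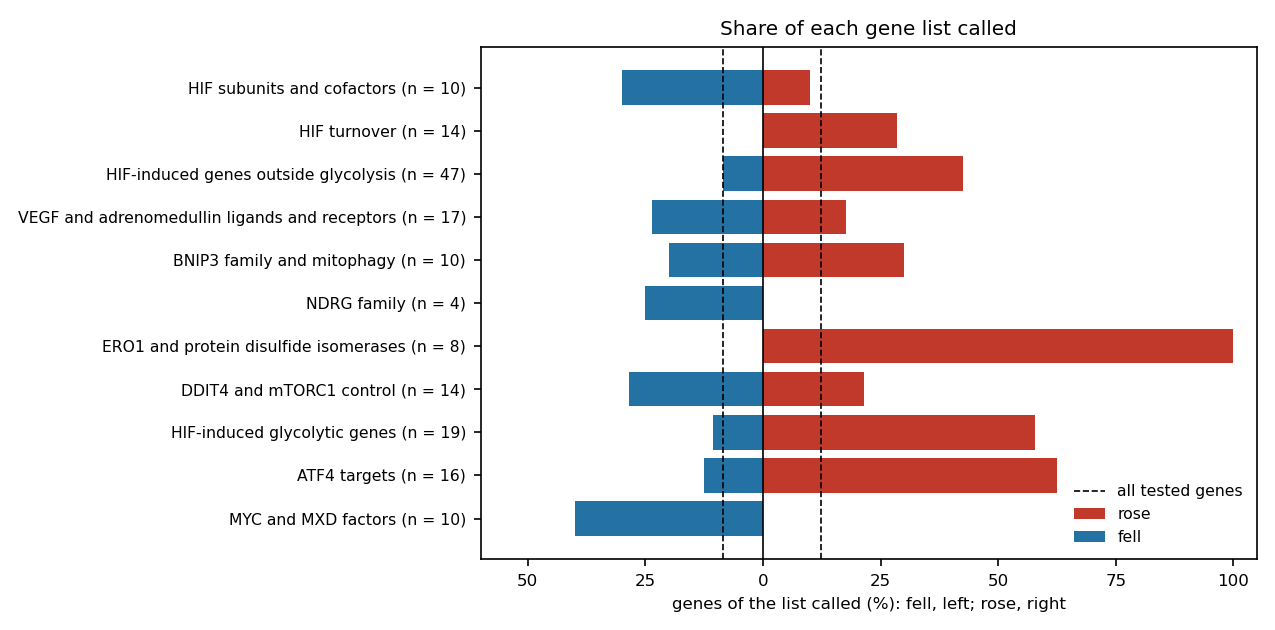
Share of the measured genes of each list that rose (right, red) or fell (left, blue) with NRG1, in percent, with dashed lines at the shares over all tested genes (12.3% rose and 8.56% fell). All 8 genes of the ERO1 and disulfide isomerase list rose, whereas the MYC and MXD list held falls (4 of 10) and 0 rises; lists share members, the ATF4 list includes Atf4, and the 10 genes described here are included.

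The arrays of a group correlated at 0.996 to 0.997 across genes, and those of different groups at 0.981 to 0.986. Of 7 melanocyte markers, which had mean signals of 10.96 to 13.88, 6 fell and Sox10 was not called, and the mean over the list was 12.29 to 12.30 with NRG1 and 12.74 to 12.75 without. Keratinocyte and endothelial markers held 0 calls among 5 and 4 genes, with list means of 6.12 to 6.28 and 5.81 to 5.96 over all 6 arrays. Of 6 fibroblast markers 1 was called, a rise of Col1a1 (0.86), and their mean was 6.71 to 6.86 with NRG1 and 6.63 to 6.78 without. Of 5 macrophage markers 1 was called, a rise of Cd68 (0.23, called in 10 of 17 other settings), with a mean of 6.06 to 6.09 with NRG1 and 5.96 to 6.14 without. The part of these markers in the results was not tested.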

How the data were processed

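The deposited table holds log2 values of Affymetrix Mouse Gene 1.0 ST arrays (array name from the platform annotation). The authors used 200 ng of total RNA per array, per the labels. RMA and GCOS are named as tools, per the submitters' processing notes; settings and versions are not stated in what was used here, and the values (2.34 to 14.6) were taken as log2 from their range. Background and probe summaries were the authors', so compression of dim and bright signals could not be examined. An array has no read depth, and 3 arrays per group limit the precision, with a median SE of 0.071.

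Each column matched 1 sample. Of 35557 probe sets, 21789 had 1 gene (1621 had several and 12147 were unnamed here). Symbols were updated through Entrez numbers to RefSeq (GRCm38.p6), with 21698 matched. The brightest probe set was kept for the 999 genes with more than 1, leaving 19938 genes and no filter on level. limma 3.58.1 in R 4.3.3 (lmFit, eBayes, 2-sided) was fitted over all genes with Benjamini-Hochberg adjustment, and was tested on simulated data. The 11 gene lists had 169 of 177 entries measured and are described by counts. Pairs of related genes were compared with exact permutation tests.

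The text names the 10 genes, their relatives and partners whatever the result, and up to 3 called genes per list and direction. Another 24 genes outside that rule, among them Mitf, Atf4, P4hb, Ube2d1 and the markers, were named after their values were seen. Members and lists were chosen with earlier results of these data known. The alternatives were 3 normalizations, 2 filters, other probe set choices, other variance models, array weights, a block for the replicate number, a minimum change, and each array left out in turn. One normalization, over the tested genes alone, was chosen after seeing the data. No other background correction was tried, for want of probe-level signals.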

Additional observations from a re-analysis of the deposited data

How the results depend on the processing

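The number of the 10 genes called was 8 under the replicate block and with each array left out, 7 with genes under the median left out, which removed Epas1 and Egln3, and 6 against a minimum change of 1.2-fold. None of the 10 changed sign under 16 to 18 alternative values each. Bnip3 moved most, from 0.70 on its other probe set to 1.80. Quantile normalization over the tested genes alone, chosen after seeing the data, gave 2257 rises and 2396 falls over all genes, a share of rises of 48.5% against 59%, and raised the calls among HIF subunits and among MYC factors to 7 each; the cause was not tested. Array weights raised the HIF turnover calls to 7. Against a minimum change of 1.2-fold, 1225 genes were called, and the lists held 14 calls (HIF-induced outside glycolysis), 8 (glycolytic), 6 (ATF4), 4 (ERO1), 3 (VEGF and adrenomedullin), 2 (HIF subunits) and 1 each for HIF turnover, mitophagy, DDIT4 and MYC, a stricter test by construction. With single arrays left out, all-gene calls ran from 3116 to 4397 and mitophagy calls from 3 to 5. The calls of Rheb, Vegfb, Nrp2, Pink1, Fundc1, Plod1, Plod2 and P4hb were kept in 16 of 17 other settings. So were those of Eloc, Eno2, Sesn1, Txnip and Mxd4. For Pgf and Car9 the count was 15 of 16, and for Cul2, Bcl2l13, Ak4, Aldoc and Myc 15 of 17.

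The labels do not say whether replicate numbers pair the samples. Same-numbered arrays of the 2 groups had correlations of their deviations of -0.095, -0.16 and 0.074. Those of differently numbered arrays ran from -0.20 to 0.25, and not every array correlated best with its own number. With 3 arrays per group these correlations cannot settle whether the samples were paired. With the replicate block 3609 genes were called instead of 4168.

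The difference of Egln3 and Egln1 turned to 0.037 under quantile normalization and ran from -0.17 to 0.026 with single arrays left out. Of 1507 alternative values of the 90 named genes 33 turned sign, all of genes not called. They were Bnip3l (-0.025 and -0.037 under the 2 quantile normalizations, -0.0085 with probe sets averaged, and -0.023 to 0.031 with arrays left out), Hif1an (0.024 centred, and -0.050 to 0.033), Ramp1 (0.024 and 0.0087 quantile, 0.0016 centred, 0.0057 with array weights, and -0.049 to 0.016), Ramp3 (0.017 and 0.0031 quantile, and -0.077 to 0.0083), Nrp1 (-0.022 quantile over tested genes, and -0.00057 to 0.12), Calcrl (-0.032 with array weights, and -0.063 to 0.086), Ankrd37 (0.015 quantile, 0.017 centred, and -0.058 to 0.048), Kdm3a (-0.029 and -0.059 quantile), Ndrg2 (-0.0097 to 0.12 with arrays left out) and Mycn (-0.075 with array weights, and -0.11 to 0.086).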
